A study of Homo sapiens with 10 samples.

Results

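The transcripts of 10 genes of the integrated stress response, the unfolded protein response and serine synthesis were followed in PC-3 spheroids treated with topotecan. The genes were ATF4, DDIT3, DDIT4, TRIB3, CHAC1, ASNS, PSAT1, PHGDH, HSPA5 and XBP1. They were picked by symbol as members of these pathways, with earlier results of these data known, and all 10 were found among the 18144 genes of the expression table.

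PC-3 is an established human prostate cancer cell line that was derived from a bone metastasis and grows without androgen, and here it was cultured as three-dimensional spheroids described in the labels as wild type. Topotecan, which traps topoisomerase I on DNA, was given either as a conventional bolus at the outset (CONV-TOPO) or every day in small fractions of the bolus (extended exposure, EE-TOPO), and control spheroids (untreated) received none. RNA-seq values were used for untreated spheroids of day 0, day 3 and day 7, for CONV-TOPO spheroids of day 3 and day 7, and for EE-TOPO spheroids of day 3 and day 7. Each of these 7 conditions was represented by 1 library of a single cell line, so no value has a replicate, and the 3 samples of day 1 were not analysed here. The study's text also speaks of an exposure of several weeks, and the days given by the labels are used here. Medium was exchanged in every well on day 3 and once more later in the week, and whether the day 3 spheroids were collected before or after the exchange is not given in the sources used here.

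In the integrated stress response, kinases that sense amino acid shortage, unfolded protein, viral RNA or haem shortage phosphorylate the translation factor eIF2 alpha, which lowers general translation while the mRNA of the transcription factor ATF4 is translated more. Much of the control of ATF4 is therefore on its protein, whereas the genes it switches on, for stress signalling, amino acid supply and serine synthesis, respond in their mRNA. The unfolded protein response of the endoplasmic reticulum shares one of these kinases, PERK, and has arms of its own through ATF6 and through IRE1, which splices XBP1 mRNA, so the level of XBP1 mRNA counted per gene does not show its splicing.

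Elements through which the pathways act were searched for in the promoters of these genes, and the stretches that hold one are printed here to show which members have it close to their start. RefSeq promoter windows (GRCh38.p14, 250 bases before to 50 bases after a gene's start) were found for all 10 genes and searched on both strands for TGATGNAA, the C/EBP-ATF response element bound by ATF4 with a C/EBP partner, for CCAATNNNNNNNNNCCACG, the ER stress response element bound by NF-Y with ATF6, and for TGACGTGG, the XBP1 element called UPRE. The first was held by CHAC1 and ASNS, against 3.62% of all 35116 windows, the second by HSPA5 and XBP1, against 0.0769% of all windows, and the third by none of the 10 genes, against 0.729% of all windows. A gene was counted when any of its windows held the element, whereas the shares count windows, of which a gene can have several. In the 4 stretches below, each 120 bases long and written from 5′ to 3′ along the gene, capitals mark the element.
CHAC1: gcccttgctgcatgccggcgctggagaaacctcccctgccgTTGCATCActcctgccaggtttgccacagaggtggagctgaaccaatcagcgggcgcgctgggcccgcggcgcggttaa
ASNS: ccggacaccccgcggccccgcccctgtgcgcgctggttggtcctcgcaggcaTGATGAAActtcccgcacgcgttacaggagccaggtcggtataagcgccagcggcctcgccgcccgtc
HSPA5: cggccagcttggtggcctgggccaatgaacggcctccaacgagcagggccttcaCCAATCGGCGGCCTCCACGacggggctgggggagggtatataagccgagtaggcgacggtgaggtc
XBP1: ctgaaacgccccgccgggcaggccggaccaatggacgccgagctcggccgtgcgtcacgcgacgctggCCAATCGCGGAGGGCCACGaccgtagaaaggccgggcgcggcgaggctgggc
The CHAC1 stretch lies at chr15:40953221-40953340 on the plus strand, and its element, on the opposite strand, begins 209 bases before the start. For ASNS the stretch is chr7:97872409-97872528 on the minus strand, with the element 68 bases before the start of that window. RefSeq has 2 such windows for ASNS, and this one lies inside the gene span of the expression table, downstream of the outermost start. The HSPA5 stretch is chr9:125241344-125241463 on the minus strand, with its element 66 bases before the start, and the XBP1 stretch is chr22:28800570-28800689 on the minus strand, with its element 52 bases before the start of 1 of the 2 windows of that gene. A match of letters is a description of these windows and not evidence of binding.

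Levels are given as CPM, reads per 1000000 reads counted, scaled between libraries with TMM factors, a normalisation that sets the bulk of genes level, and called scaled CPM. The depth recovered from the table was 15.0 to 22.5 M reads per library (M for 1000000), and intervals in brackets are exact 95% intervals that cover counting error only. Values were whole reads in all 7 libraries for DDIT3, DDIT4, CHAC1, PSAT1, PHGDH and HSPA5, in 4 for XBP1, in 1 for TRIB3 and in 0 for ATF4 and ASNS, so the reads of these last 4 genes were estimated in part and their intervals are approximate. The 2 treated libraries of day 7 stood apart from the other 5 libraries, with TMM factors of 0.883 in CONV-TOPO and 0.901 in EE-TOPO against at least 0.981 elsewhere, and the scaling raised their ratios to untreated day 7 by 0.25 and 0.22 on the log2 scale. They also listed 2139 and 1671 genes at 0, compared with 596 to 1257 genes in the other libraries. The 6 PC-3 and epithelial markers examined, among them KRT8, KRT18 and EPCAM, were present in every library. They include VIM, which the study counts as a marker of epithelial-to-mesenchymal transition. The leukocyte gene PTPRC and the endothelial gene VWF did not exceed 0.448 and 0.150 scaled CPM. Of the 6 other blood, endothelial and fibroblast markers, CD3E was not used here, PDGFRB did not exceed 0.591, COL3A1 had 3.32 to 14.6, and PECAM1 (18.6 to 31.2), COL1A1 (48.5 to 79.0) and CD68 (66.5 to 142 scaled CPM) were detected in every library.

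Of the 10 genes, 8 were highest in scaled CPM in a treated library of day 7, and DDIT4 was the one member above the untreated spheroids of the same day in all 4 treated libraries. The count of 8 rests on the scaling, since in deposited CPM ATF4 was highest in untreated day 3 and PSAT1 in EE-TOPO day 3. The share of all genes highest in a treated library of day 7 was not computed. DDIT3, CHAC1, TRIB3 and ASNS were also high in untreated spheroids of day 3, and their treated libraries of day 3 were near or below that level. On day 7 their treated libraries lay above untreated spheroids of day 7 and of day 0. PHGDH was high only in the 2 treated libraries of day 7. ATF4 and HSPA5 mRNA varied little beside these. Because these are bulk RNA values, fewer cells of a type and less RNA per cell cannot be told apart.

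**Figure D1:**
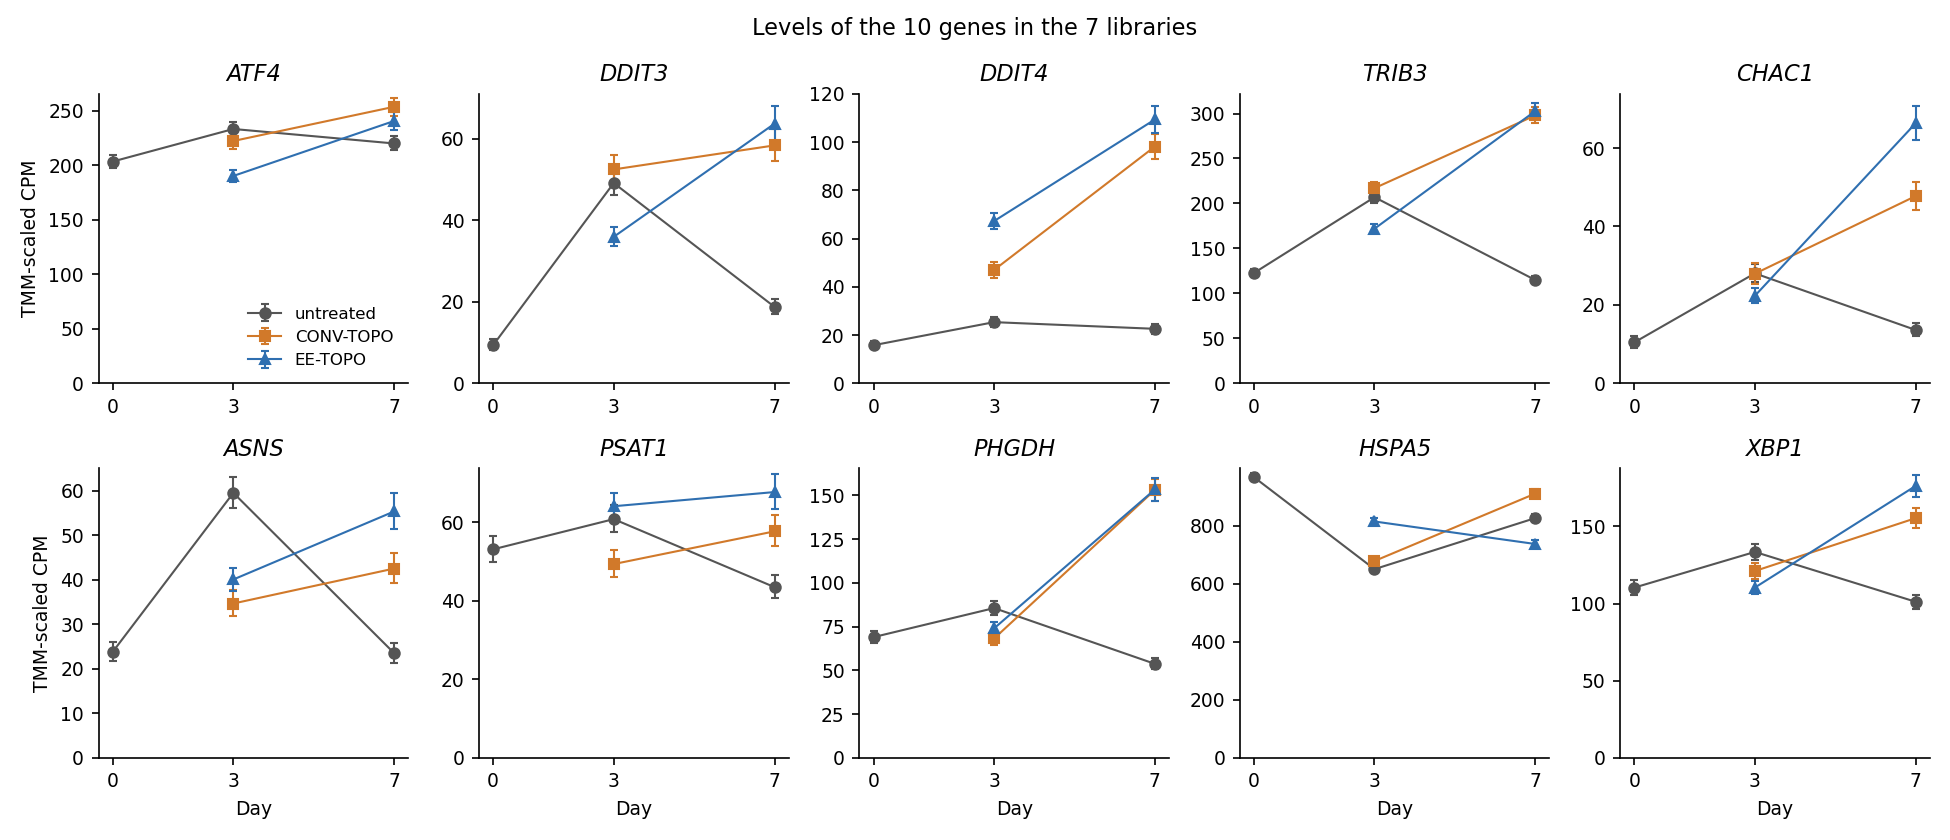
Scaled CPM (y axis, from 0) of each of the 10 genes against day (x axis) in untreated (grey circles), CONV-TOPO (orange squares) and EE-TOPO (blue triangles) spheroids. Each point is 1 library, bars are 95% counting intervals, and lines join the days of a treatment. DDIT4 separates treated from untreated libraries on both days, while DDIT3, CHAC1, TRIB3 and ASNS have an untreated peak on day 3.

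ATF4 (ENSG00000128272.18, chr22:39520559-39522687 on the plus strand of hg38), the transcription factor at the centre of the pathway, had 203 scaled CPM in untreated spheroids of day 0, 233 on day 3 and 220.0 on day 7. In CONV-TOPO spheroids it had 222 on day 3 and 254 on day 7, and in EE-TOPO spheroids 190 on day 3 and 241 on day 7. The highest library, CONV-TOPO of day 7, was 1.33-fold the lowest, EE-TOPO of day 3, and the counting intervals of the 5 highest libraries overlapped from neighbour to neighbour. Against untreated spheroids of the same day, ATF4 was at 0.953-fold (0.912 to 0.995) in CONV-TOPO and 0.82-fold (0.78 to 0.85) in EE-TOPO on day 3, and at 1.15-fold (1.10 to 1.20) and 1.09-fold (1.05 to 1.14) on day 7. The direction on day 7 turns with the scaling, since the deposited CPM give 0.969-fold and 0.937-fold. Across the 9984 genes with a mean of at least 10 scaled CPM, the spread of ATF4 over the 7 libraries (SD of 0.14 in log2) lay at percentile 9.28.

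DDIT3 (ENSG00000175197.13, chr12:57516588-57520518 on the minus strand of hg38) encodes CHOP, a transcription factor induced by ATF4 that promotes cell death in prolonged stress. It had 9.34 scaled CPM in untreated spheroids of day 0, 49.1 on day 3 and 18.7 on day 7. In CONV-TOPO it had 52.5 on day 3 and 58.4 on day 7, and in EE-TOPO 35.9 and 63.7. Untreated day 0 and untreated day 7 were the low libraries, and the intervals of untreated day 3, CONV-TOPO day 3, CONV-TOPO day 7 and EE-TOPO day 7 overlapped from neighbour to neighbour. On day 7 DDIT3 was at 3.12-fold the untreated level (2.76 to 3.53) in CONV-TOPO and at 3.40-fold (3.01 to 3.85) in EE-TOPO, whereas on day 3 it was at 1.07-fold (0.97 to 1.17) and 0.73-fold (0.67 to 0.80). Its exons share 355 bases with those of MARS1, a tRNA synthetase gene on the other strand, and since the library kit does not mark strand, reads of the shared bases cannot be told apart.

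TRIB3 (ENSG00000101255.12, chr20:380629-397560 on the plus strand of hg38), a pseudokinase induced by ATF4 and CHOP that feeds back on ATF4 and on AKT signalling, had 123 scaled CPM in untreated spheroids of day 0, 207 on day 3 and 115 on day 7. CONV-TOPO spheroids had 217 on day 3 and 298 on day 7, and EE-TOPO spheroids had 172 and 303. The lowest libraries were again untreated day 0 and day 7, which overlapped in their intervals, and the highest were the 2 treated libraries of day 7, which also overlapped. These day 7 libraries were at 2.60-fold (2.47 to 2.73) and 2.64-fold (2.51 to 2.78) the untreated level, in contrast to 1.05-fold (1.00 to 1.10) and 0.83-fold (0.80 to 0.87) on day 3.

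CHAC1 (ENSG00000128965.13, chr15:40953471-40956513 on the plus strand of hg38), which degrades glutathione and is a target of ATF4 and CHOP, had 10.4 scaled CPM in untreated spheroids of day 0, 28.0 on day 3 and 13.6 on day 7. Its values in CONV-TOPO were 27.9 and 47.8 on days 3 and 7, and in EE-TOPO 22.3 and 66.3. CHAC1 and DDIT4 were the members furthest above untreated on day 7, CHAC1 with 3.51-fold (3.05 to 4.06) in CONV-TOPO and 4.88-fold (4.26 to 5.61) in EE-TOPO. On day 3 it was at 0.997-fold (0.878 to 1.13) and 0.80-fold (0.71 to 0.90).

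DDIT4 (ENSG00000168209.6, chr10:72273924-72276037 on the plus strand of hg38) encodes REDD1, an inhibitor of mTORC1 that is induced by ATF4, by hypoxia and by other stress signals. Untreated spheroids had 15.8 scaled CPM on day 0, 25.3 on day 3 and 22.6 on day 7. CONV-TOPO spheroids had 47.0 on day 3 and 98.2 on day 7, and EE-TOPO spheroids 67.3 on day 3 and 109 on day 7. All 4 treated libraries lay above all 3 untreated libraries, with no overlap of counting intervals between the highest untreated and the lowest treated library. On day 3 DDIT4 was at 1.85-fold (1.65 to 2.08) the untreated level in CONV-TOPO and at 2.65-fold (2.40 to 2.94) in EE-TOPO, and on day 7 at 4.35-fold (3.91 to 4.85) and 4.85-fold (4.36 to 5.40). Among genes passing the filter on low values, it lay at percentiles 99.4 and 99.8 of the ratios of day 3 and at percentile 99.6 of those of day 7 in both regimens.

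ASNS (ENSG00000070669.17, chr7:97851677-97928442 on the minus strand of hg38), which makes asparagine and is induced by amino acid shortage, was highest in an untreated library. It had 23.8 scaled CPM in untreated spheroids of day 0, 59.5 on day 3 and 23.5 on day 7, next to 34.7 and 42.5 in CONV-TOPO of days 3 and 7 and 40.05 and 55.3 in EE-TOPO. On day 3 it was at 0.58-fold (0.53 to 0.65) the untreated level in CONV-TOPO and 0.67-fold (0.62 to 0.73) in EE-TOPO, and on day 7 at 1.81-fold (1.60 to 2.05) and 2.35-fold (2.10 to 2.65). Against the untreated library of day 0, all 4 treated libraries were higher, by 1.46-fold to 2.32-fold. ASNS shares 2415 exonic bases with an overlapping gene model on its strand.

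PHGDH (ENSG00000092621.13, chr1:119711934-119744216 on the plus strand of hg38) and PSAT1 (ENSG00000135069.14, chr9:78297125-78330094 on the plus strand of hg38) encode the first enzymes of serine synthesis from a glycolytic intermediate, both of them ATF4 targets. PHGDH had 69.0 scaled CPM in untreated spheroids of day 0, 85.6 on day 3 and 53.7 on day 7. It had 68.2 and 153 in CONV-TOPO of days 3 and 7, and 74.0 and 153 in EE-TOPO. The treated libraries of day 7 thus matched each other within counting error and stood apart from the other 5, at 2.85-fold (2.65 to 3.07) and 2.86-fold (2.65 to 3.08) the untreated level of day 7 and 2.22-fold that of day 0. On day 3 PHGDH was at 0.80-fold (0.74 to 0.86) and 0.86-fold (0.81 to 0.92).

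PSAT1 spanned a narrower range of levels than PHGDH. Its levels were 53.1, 60.9 and 43.5 scaled CPM in untreated spheroids of days 0, 3 and 7, 49.4 and 57.7 in CONV-TOPO of days 3 and 7, and 64.1 and 67.7 in EE-TOPO. Every pair of neighbours in the order of its 7 libraries overlapped in their intervals, and the highest was 1.56-fold the lowest. On day 7 it was at 1.33-fold (1.21 to 1.46) in CONV-TOPO and 1.56-fold (1.42 to 1.71) in EE-TOPO, and on day 3 at 0.81-fold (0.74 to 0.89) and 1.05-fold (0.98 to 1.14).

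HSPA5 (ENSG00000044574.9, chr9:125234853-125241344 on the minus strand of hg38) encodes BiP, the main chaperone of the endoplasmic reticulum and a target of ATF6. It was highest in untreated spheroids of day 0, with 967 scaled CPM, and lowest in those of day 3, with 650 (638 to 661), and had 826 on day 7. CONV-TOPO spheroids had 678 on day 3 and 910 (894 to 926) on day 7, and EE-TOPO spheroids 814 on day 3 and 736 on day 7. The regimens thus lay on opposite sides of the untreated level on day 7, at 1.10-fold (1.08 to 1.13) and 0.89-fold (0.87 to 0.91), although the first of these turns to 0.926-fold in the deposited CPM. On day 3 they were at 1.04-fold (1.02 to 1.07) and 1.25-fold (1.23 to 1.28).

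XBP1 (ENSG00000100219.17, chr22:28794560-28800573 on the minus strand of hg38), the transcription factor activated by IRE1, had 110 scaled CPM in untreated spheroids of day 0, 133 on day 3 and 101 on day 7. It had 121 and 155 in CONV-TOPO of days 3 and 7 and 110 and 176 in EE-TOPO. The 2 treated libraries of day 7 were highest, at 1.54-fold (1.45 to 1.63) and 1.74-fold (1.64 to 1.85) the untreated level, and on day 3 they were at 0.91-fold (0.86 to 0.96) and 0.83-fold (0.78 to 0.87).

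Levels of different genes were compared per kilobase of transcript. HSPA5 ranked first in all 7 libraries, with 166 to 247 scaled CPM per kilobase, and ATF4 second, with 134 to 179. TRIB3, with 48.7 to 129, and XBP1, with 56.5 to 98.4, held ranks 3 and 4. CHAC1 reached only 6.85 to 43.6 and ASNS 9.85 to 24.9 scaled CPM per kilobase. The genes with the widest range of levels were DDIT4, whose highest library was 6.94-fold its lowest, DDIT3 with 6.82-fold and CHAC1 with 6.37-fold.

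Past a threshold of 2-fold, set on log2(scaled CPM + 1) for genes with a mean of at least 10 scaled CPM in the 2 libraries compared, all 10 genes passed the filter. In CONV-TOPO of day 3, 0 of the 10 were at least 2-fold higher than untreated and 0 at least 2-fold lower, where 0.33% and 0.26% of the 9996 genes compared were. In EE-TOPO of day 3, 1 gene, DDIT4, was higher and 0 lower, against 0.899% and 0.42% of all genes. On day 7 the count in CONV-TOPO was 5 higher (DDIT4, CHAC1, DDIT3, PHGDH and TRIB3) and 0 lower, against 8.13% and 7.24% of 9937 genes. EE-TOPO of day 7 had the same 5 genes and ASNS, 6 in all, higher and 0 lower, against 8.91% higher and 8.91% lower of 9958 genes. The median log2 ratio of the 10 genes was -0.04 and -0.27 on day 3 and 1.10 and 1.30 on day 7 (CONV-TOPO and EE-TOPO), beside medians over all genes of -0.03, -0.06, 0.00 and -0.01.

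**Figure D2:**
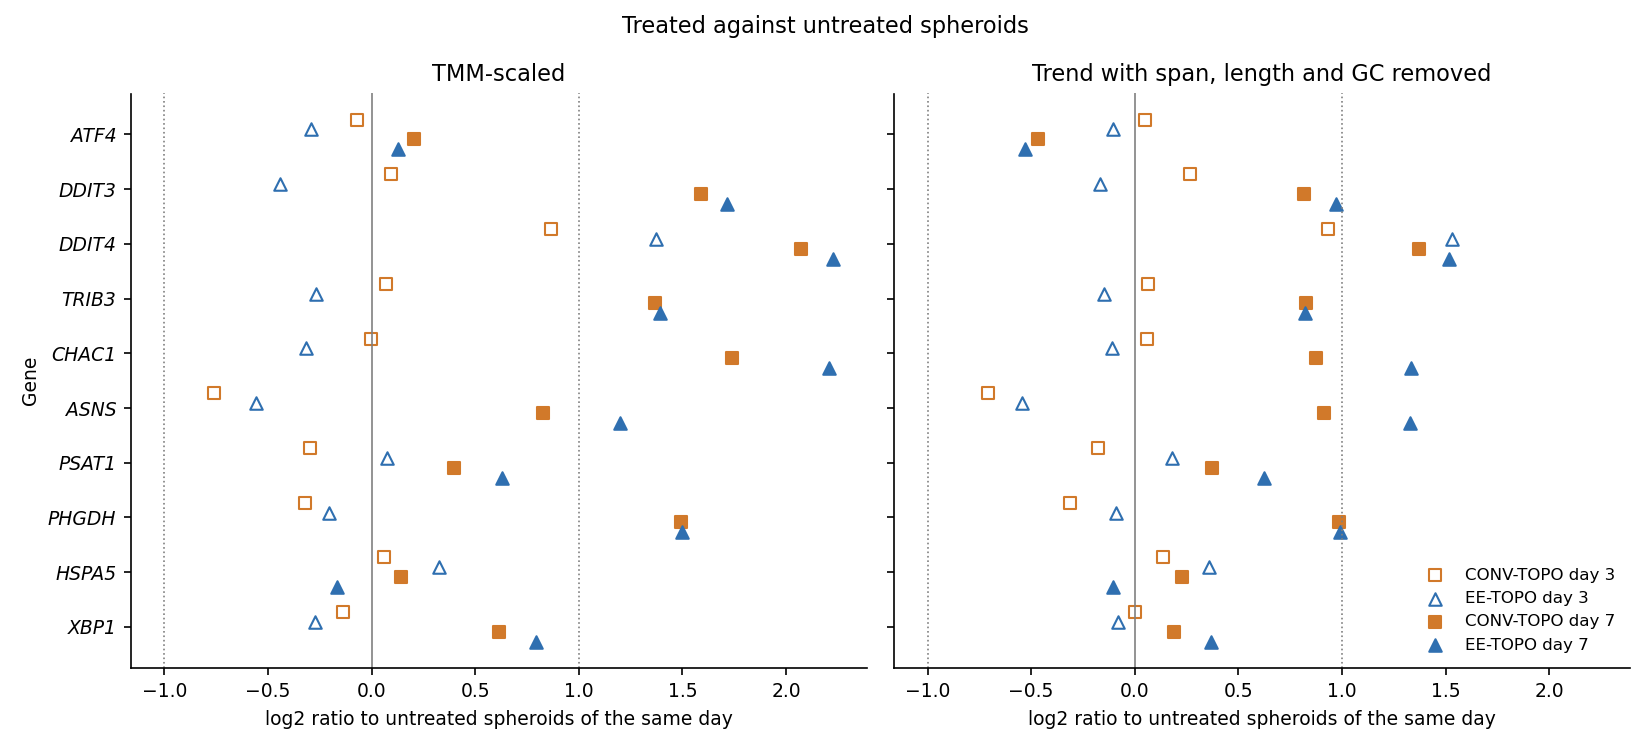
The log2 ratio of treated to untreated spheroids of the same day (x axis) for the 10 genes (y axis) in CONV-TOPO (orange squares) and EE-TOPO (blue triangles), open for day 3 and filled for day 7, 1 library each. The left panel shows scaled ratios and the right panel what was left of them after a trend across all genes was taken out, fitted on their span, transcript length and GC. Dotted lines mark 2-fold. The filled symbols of day 7 move towards 0 from left to right for all genes that were past 2-fold but ASNS, and those of DDIT4 stay past it in both regimens.

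The day 7 ratios moved with properties of the genes. Over the genes compared, the rank correlation of the ratio with gene span was 0.30 and 0.46 on day 3 and -0.56 and -0.55 on day 7 (CONV-TOPO and EE-TOPO, across genes, which are not independent replicates), and a smooth trend fitted on span, length of the transcript and GC held 54.3% and 49.3% of the variance on day 7. Of the 10 genes, TRIB3 and CHAC1 were the richest in GC, with 61.5% and 61.2%, and ASNS and PSAT1 the poorest, with 42.7% and 42.5%. After the trend was removed, the genes at least 2-fold higher on day 7 were 1 in CONV-TOPO, DDIT4 with a log2 ratio of 1.37, and 3 in EE-TOPO, DDIT4 with 1.52, CHAC1 with 1.33 and ASNS with 1.33. The share of all genes past 2-fold after this removal was not computed, so these counts have no background. PHGDH kept a log2 ratio of 0.99 in both regimens, DDIT3 0.82 and 0.97, and TRIB3 0.83 and 0.82. ATF4 turned to -0.47 and -0.53, whereas DDIT4 of day 3 had 0.93 in CONV-TOPO and 1.53 in EE-TOPO. What part gene structure has in the ratios beyond this was not tested.

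Between the regimens, 0 of the 10 genes differed by 2-fold on either day. On day 3 DDIT4 was at 1.43-fold (1.31 to 1.56) in EE-TOPO relative to CONV-TOPO and PSAT1 at 1.30-fold (1.19 to 1.42), while DDIT3 was at 0.68-fold (0.62 to 0.75) and TRIB3 at 0.79-fold (0.76 to 0.83). On day 7 CHAC1 was at 1.39-fold (1.26 to 1.54) and ASNS at 1.30-fold (1.17 to 1.45), HSPA5 at 0.81-fold (0.79 to 0.83) and PHGDH at 1.00-fold (0.94 to 1.06). DDIT3 and TRIB3 were lower in EE-TOPO on day 3 and no lower on day 7, so the difference was not of one direction over the days.

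The treatment effect common to both days was tested with limma, in a fit of the 6 libraries of days 3 and 7 with terms for treatment and day. Its error is how far an effect varied between the days, on 2 residual degrees of freedom, and not the spread of replicates. After Benjamini-Hochberg adjustment 0 of 14818 genes (0.0%) passed an adjusted p of 0.05 in CONV-TOPO against untreated, 0 (0.0%) in EE-TOPO against untreated, 0 (0.0%) in EE-TOPO against CONV-TOPO and 0 (0.0%) in day 7 against day 3. At an unadjusted p under 0.05 the counts were 257, 527, 134 and 1467 genes. DDIT4 was the only member below an unadjusted 0.05, in both regimens. In EE-TOPO its log2 fold change was 1.80 ± 0.33 (SE, limma unadjusted p = 0.0016, adjusted p = 0.91), higher in 2 of 2 libraries, and in CONV-TOPO it was 1.47 ± 0.33 (limma unadjusted p = 0.0045, adjusted p = 0.91), also higher in 2 of 2. For CHAC1 the limma log2 fold change was 0.94 ± 0.57 in EE-TOPO and 0.87 ± 0.57 in CONV-TOPO, and for DDIT3 0.64 ± 0.50 and 0.84 ± 0.50. The limma 95% interval of the regimen difference was wide for all 10 genes, from -0.48 to 1.15 in log2 for DDIT4, from -1.33 to 1.48 for CHAC1 and from -1.43 to 1.02 for DDIT3.

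Whether the effect of topotecan differed between the days was tested in another limma fit of the same 6 libraries, with both regimens as 1 treated group and an interaction of treatment and day, chosen after seeing the data. Its error is the difference between the regimens within a day, and the single untreated library of each day is assumed to vary likewise, so its p-values do not cover the variation between spheroids. The trend on span, length and GC was not removed before this fit. In this fit 4225 of 14818 genes (28.5%) passed an adjusted p of 0.05, 2178 of them higher and 2047 lower on day 7 than on day 3. Of the 10 genes, 7 passed, all with a higher effect on day 7, and CHAC1 had the largest difference, 2.13 ± 0.33 in log2 (SE, limma adjusted p = 0.0029). ATF4 (0.35 ± 0.20, limma adjusted p = 0.23), PSAT1 (0.62 ± 0.27, limma adjusted p = 0.11) and HSPA5 (-0.21 ± 0.26, limma adjusted p = 0.59) did not pass.

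Untreated spheroids also differed between days in several of these genes. From day 0 to day 3, DDIT3 reached 5.26-fold (4.48 to 6.19), CHAC1 2.69-fold (2.29 to 3.18) and ASNS 2.50-fold (2.24 to 2.79), and these were the 3 of 10 genes at least 2-fold higher, with 0 at least 2-fold lower, where 1.37% and 0.252% of all genes were. TRIB3 was at 1.69-fold (1.60 to 1.78) and DDIT4 at 1.61-fold (1.39 to 1.86), while HSPA5 was at 0.67-fold (0.66 to 0.69). The median of the 10 genes was a log2 ratio of 0.48, beside -0.03 over all genes.

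On day 7 untreated DDIT3, CHAC1, ASNS and TRIB3 lay closer to their day 0 levels than on day 3. PHGDH was at 0.78-fold of day 0 (0.72 to 0.84) and PSAT1 at 0.82-fold (0.75 to 0.90), below both earlier days, and DDIT4 was at 1.43-fold (1.24 to 1.66). Against day 0, 0 of the 10 genes were past 2-fold in either direction, where 0.748% of all genes were higher and 0.121% lower, although DDIT3 stood at the edge with a plain ratio of 2.005-fold (1.68 to 2.41). Relative to day 3, 0 genes were at least 2-fold higher and 2 were lower, DDIT3 at 0.38-fold (0.34 to 0.43) and ASNS at 0.39-fold (0.35 to 0.44), against 0.561% and 0.771% of all genes, and CHAC1 missed the threshold with a log2 ratio of -0.99.

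**Figure D3:**
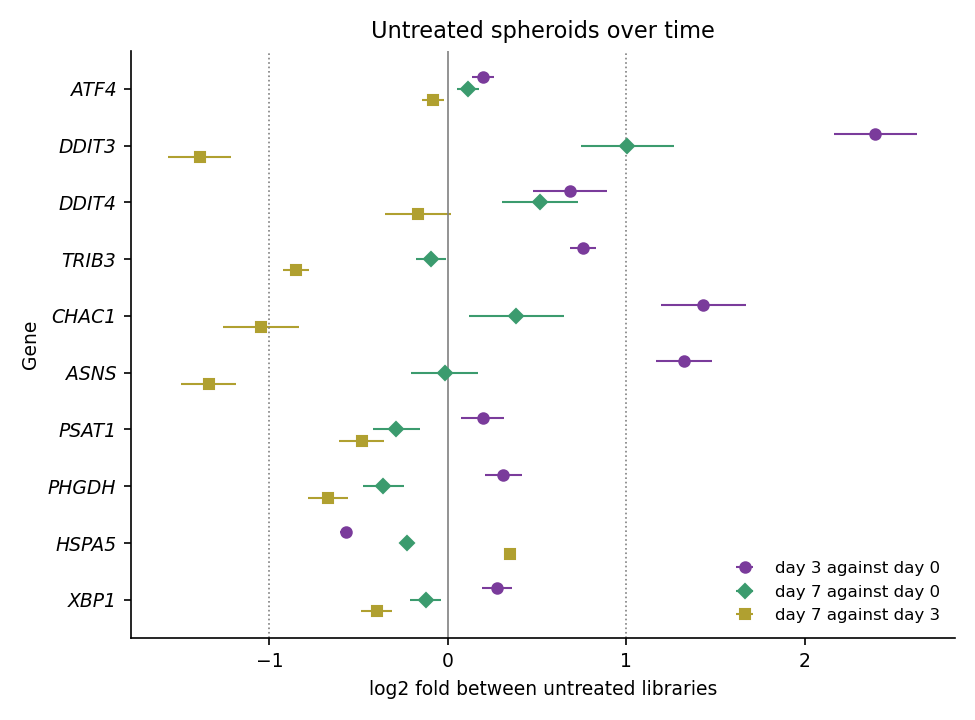
The log2 fold between untreated libraries (x axis) for the 10 genes (y axis), for day 3 against day 0 (purple circles), day 7 against day 0 (green diamonds) and day 7 against day 3 (yellow squares), 1 library each, with bars for 95% counting intervals and dotted lines at 2-fold. DDIT3, CHAC1, ASNS and TRIB3 lie to the right for day 3 against day 0 and to the left for day 7 against day 3, and HSPA5 does the opposite.

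The day 3 comparisons depended on which untreated library was the baseline. With untreated spheroids of day 0 as the baseline, CONV-TOPO of day 3 had DDIT3 at 5.61-fold (4.78 to 6.62), DDIT4 at 2.98-fold (2.61 to 3.41) and CHAC1 at 2.68-fold (2.27 to 3.18), and 3 genes in place of 0 were past 2-fold. EE-TOPO of day 3 had DDIT4 at 4.26-fold (3.77 to 4.83), DDIT3 at 3.84-fold (3.27 to 4.53) and CHAC1 at 2.14-fold (1.82 to 2.53), again 3 genes. In both regimens 0 of the 10 genes were at least 2-fold lower than day 0. Of all genes, 2.03% were at least 2-fold higher than day 0 and 0.503% lower in CONV-TOPO, and 2.53% and 1.27% in EE-TOPO. DDIT4 was past 2-fold over day 0 in all 4 treated libraries, and its untreated libraries were within 1.61-fold of each other.

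Over the 7 libraries, pairs of the 10 genes were described by Pearson's r of log2(scaled CPM + 1), with the same libraries and depths behind each r. TRIB3 and CHAC1 ran closest together (r = 0.97, 7 libraries), followed by PHGDH and XBP1 (r = 0.96), and HSPA5 ran against DDIT3 (r = -0.62) and ASNS (r = -0.61). Among the genes with a mean of at least 10 scaled CPM and an SD of at least 0.3 in log2, the patterns most like ATF4 were those of PCGF2 (r = 0.98), CCDC22 (r = 0.96) and TP53I3 (r = 0.96). Most like ASNS were RELB (r = 0.96), DUSP1 (r = 0.96) and RAD51L3-RFFL (r = 0.95), and most like PHGDH were ZP3, MPV17L2 and CNPPD1 (r = 0.99 each). HSPA5 was most like SMYD3 (r = 0.95), KIF20A (r = 0.92) and ADK (r = 0.91). These genes were the closest of the 4987 searched for ATF4 and HSPA5 and the 4986 searched for ASNS and PHGDH, over 7 libraries.

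Other genes of the pathways were described by 8 lists holding 104 genes, and 0 of these genes passed limma in any of the 4 tests. Genes with under 10 scaled CPM in the mean of a comparison were left out of its counts, and the shares of all genes past 2-fold given above are the background for each. Counts after removal of the trend on span, length and GC are of genes past 2-fold in either direction and stand beside each list. The shares given above are no background for these counts, and none was computed with the trend removed.

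Upstream, the list of eIF2 alpha kinases and phosphatase subunits had 9 genes, and few of them were past 2-fold. The gene of eIF2 alpha itself, ATF6 and ERN1 were also counted in it. PPP1R15A, the stress-inducible phosphatase subunit GADD34 that ends eIF2 alpha phosphorylation, had 167 scaled CPM in untreated spheroids of day 0, 320.1 on day 3 and 99.9 on day 7. It had 158 and 110 in CONV-TOPO of days 3 and 7 and 110 and 152 in EE-TOPO, and was thus at 0.49-fold and 0.34-fold the untreated level on day 3. EIF2AK4, the kinase GCN2 that senses uncharged tRNA, was at 0.53-fold in CONV-TOPO and 0.46-fold in EE-TOPO on day 7. ERN1, which encodes IRE1, was at 3.67-fold in untreated day 3 relative to day 0. ERN1 and an eIF2 alpha kinase were the 2 genes of the list at least 2-fold higher in that comparison, with 0 lower. Of all genes, 1.37% were higher and 0.252% lower. PPP1R15B, the constitutive phosphatase subunit, was at 0.61-fold and 0.64-fold on day 7. The median log2 ratio of the list was -0.35 and -0.26 on day 7, and after the trend on gene structure was removed, 0 genes were past 2-fold on that day in either regimen, next to 0 in CONV-TOPO and 1 in EE-TOPO on day 3.

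ATF4 partners and related bZIP factors included a gene with a sharper untreated peak on day 3 than any of the 10 genes. ATF3, an early stress-induced repressor, had 15.4 scaled CPM in untreated day 0, 119 in untreated day 3 and 15.8 in untreated day 7, next to 26.4 and 29.9 in CONV-TOPO and 52.7 and 60.4 in EE-TOPO of days 3 and 7. It was therefore at 0.22-fold and 0.44-fold on day 3 and at 1.89-fold and 3.82-fold on day 7. JUN was at 2.10-fold in untreated day 3 relative to day 0. On day 7 CEBPB was at 2.56-fold in CONV-TOPO and 3.71-fold in EE-TOPO and CEBPD at 3.00-fold and 3.79-fold, so that 2 and 3 of the 8 genes that passed the filter were at least 2-fold higher, with 0 lower. These counts were 0 and 1 after the trend on gene structure was removed.

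Of 18 other targets of ATF4 or CHOP, 3 of the 11 that passed the filter were at least 2-fold higher in CONV-TOPO on day 7 and 5 of 12 in EE-TOPO, with 0 lower. GDF15, a secreted stress cytokine, had 346, 684 and 347 scaled CPM in untreated spheroids of days 0, 3 and 7, 1029 and 1943 in CONV-TOPO of days 3 and 7, and 840.5 and 2506 in EE-TOPO. NUPR1, a small stress-induced chromatin protein, was at 4.43-fold and 4.76-fold on day 7, and PCK2, the mitochondrial PEP carboxykinase, at 2.48-fold and 2.29-fold. ADM2, a secreted peptide, was at 1.97-fold and 2.82-fold. The list's median log2 ratio was 0.69 in CONV-TOPO and 0.88 in EE-TOPO, and after the trend on gene structure was removed, 3 genes were past 2-fold in each regimen.

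Amino acid transporters of the ATF4 programme lay on both sides of untreated on day 7. SLC3A2, the heavy chain of several exchangers, was at 2.44-fold in CONV-TOPO and 3.71-fold in EE-TOPO, and the glutamine carrier SLC1A5 at 2.02-fold and 1.92-fold. SLC7A5, the large neutral amino acid transporter that pairs with SLC3A2, was at 1.61-fold and 1.97-fold. The cystine transporter SLC7A11, another partner of SLC3A2, was in contrast at 0.46-fold and 0.40-fold. The list had 3 genes past 2-fold in either direction in CONV-TOPO and 2 in EE-TOPO, which became 0 and 1 after the trend on gene structure was removed.

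Cytosolic tRNA synthetases, many of which are ATF4 targets, were past 2-fold in 0 of 18 genes in all 4 treated libraries against untreated spheroids of the same day. On day 3, 17 of 18 lay below the untreated level in each regimen, with median log2 ratios of -0.27 and -0.36, where 54.8% of all genes in CONV-TOPO and 57.0% in EE-TOPO lay below it. That untreated level was itself above day 0 in 15 of 18, where 45.7% of all genes were above. Against untreated day 0, 10 of 18 lay below on day 3 in each regimen, with medians of -0.04 and -0.05. Of all genes, 56.7% and 56.8% lay below day 0. On day 7 AARS1 was at 1.74-fold and 1.71-fold, YARS1 at 1.65-fold and 1.94-fold and WARS1 at 1.70-fold and 1.80-fold, while 6 of 18 genes in CONV-TOPO and 7 of 18 in EE-TOPO lay below untreated and the medians were 0.18 and 0.22. The count of 0 past 2-fold held after the trend on gene structure was removed.

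Serine and one-carbon enzymes other than PHGDH and PSAT1 were also past 2-fold in 0 of the 9 that passed the filter, in all 4 treated libraries. SHMT2, the mitochondrial enzyme that splits serine into glycine and a one-carbon unit, came closest, at 1.63-fold in CONV-TOPO and 1.85-fold in EE-TOPO on day 7. MTHFD2 was at 1.26-fold and 1.44-fold and MTHFD1 at 0.94-fold and 0.90-fold. On day 3, 8 of the 9 lay below untreated in each regimen, beside the same 54.8% and 57.0% of all genes. Against untreated day 0, 7 of the 9 lay below on day 3 in each regimen, where 56.7% and 56.8% of all genes did. With the trend removed, 0 were past 2-fold in the 4 treated libraries.

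Chaperones of the endoplasmic reticulum and targets of XBP1 or ATF6 lay low in untreated spheroids of day 3, as HSPA5 did, with 18 of 19 below day 0 and a median log2 ratio of -0.31, where 54.3% of all genes were below. On day 7, 1 of 19 was at least 2-fold higher in each regimen, SDF2L1 at 2.78-fold in CONV-TOPO and 2.42-fold in EE-TOPO, and 0 were after the trend on gene structure was removed. Of the 19 genes, 7 in CONV-TOPO and 8 in EE-TOPO lay below untreated on day 7. SEC61B was at 1.95-fold and 1.87-fold, MANF at 1.90-fold and 1.61-fold and CRELD2 at 1.85-fold and 1.46-fold. The list's median log2 ratios were 0.18 and 0.10 on day 7, beside 0.00 and -0.01 over all genes.

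DDIT4 also responds to hypoxia, so 10 hypoxia genes were set beside it. On day 7 ADM, a vasodilator peptide, was at 2.78-fold and 2.46-fold, and PDK1, a classical HIF-1 target that holds back pyruvate oxidation, at 0.39-fold and 0.34-fold. The 2 genes past 2-fold in each regimen became 0 after the trend on gene structure was removed. NDRG1 was at 1.52-fold and 1.16-fold and ANKRD37 at 1.54-fold and 1.19-fold. On day 3, where DDIT4 was at 1.85-fold in CONV-TOPO and 2.65-fold in EE-TOPO, 0 of the 8 and 0 of the 7 hypoxia genes that passed the filter were past 2-fold. Their medians were 0.23 and 0.17, with 6 higher and 2 lower in CONV-TOPO and 4 higher and 3 lower in EE-TOPO. Of all genes, 45.2% and 43.0% were higher. ADM was at 1.46-fold and 1.19-fold, NDRG1 at 1.36-fold and 1.13-fold and PDK1 at 0.93-fold and 0.97-fold. The part of the hypoxia genes in the DDIT4 result was not tested.

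**Figure D4:**
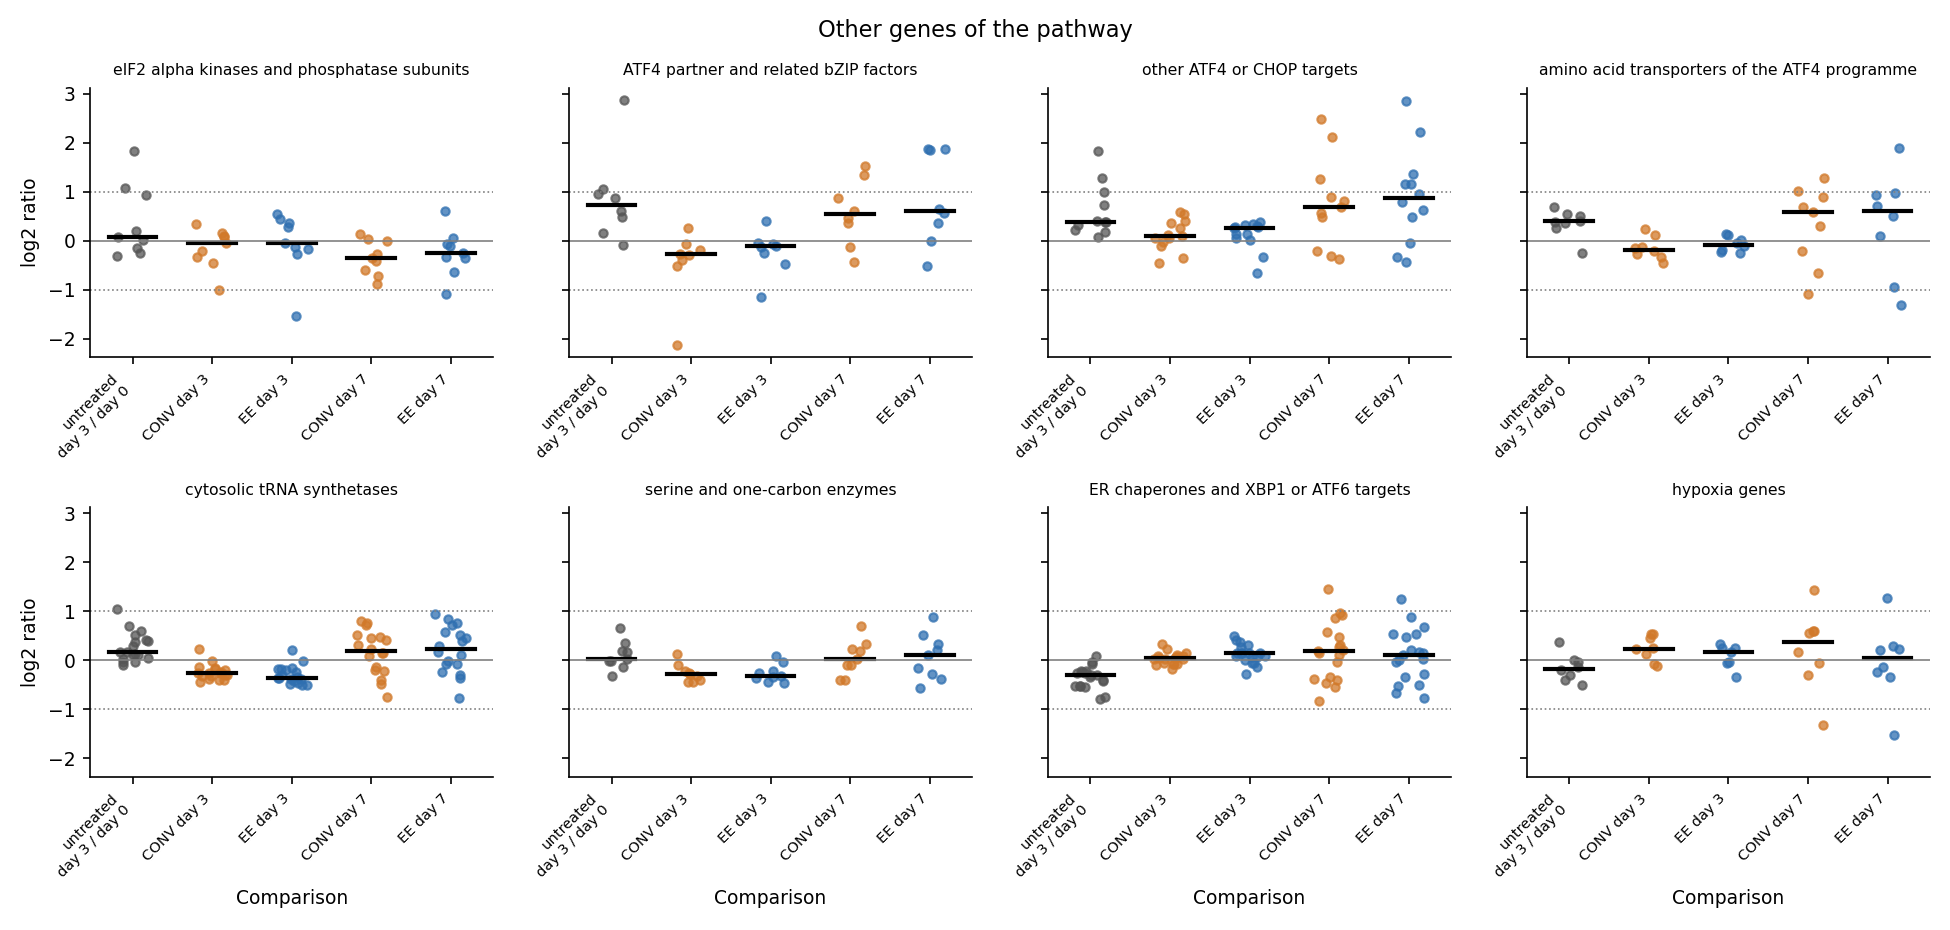
The log2 ratio (y axis) of each gene of the 8 pathway lists that passed the filter on low values, for untreated day 3 against day 0 (grey) and for CONV-TOPO (orange) and EE-TOPO (blue) of days 3 and 7 against untreated spheroids of the same day (x axis). Points are genes, black bars their medians and dotted lines 2-fold. The targets of ATF4 or CHOP spread upward on day 7, while tRNA synthetases and serine enzymes stay within 2-fold in the treated libraries.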

How the data were processed

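Bulk RNA-seq of PC-3 spheroids was deposited as 1 table of CPM values per gene. According to the study's methods, the authors made TruSeq RNA v2 libraries, mapped reads to hg38 with STAR and normalised counts to CPM, and the methods name DESeq2, edgeR and Partek Flow. The counter, annotation and strand setting are not given in the sources used here. From the deposited CPM, each library's depth was recovered from the step of 1 read. Between 88.6% and 90.6% of the values below 1 CPM were whole reads (within 0.02 of a read), so no count test was run. Values were scaled with TMM factors (trim of 30% and 5%) recomputed in Python 3.11.15. limma 3.58.1 in R 4.3.3 fitted log2(scaled CPM + 1) on genes with at least 10 reads at median depth (0.528 CPM) in 2 or more libraries, two-sided. Transcript lengths and GC came from GENCODE 44. The 10 genes and the lists were chosen with earlier results of these data known. From each list at most 4 genes were named, those furthest from untreated in a treated library, and SESN2 and others past 2-fold are counted only. Some genes that this rule names are not reported here.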

Additional observations from a re-analysis of the deposited data

Results flagged for a closer look

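The effect of topotecan, with both regimens as 1 treated group, was higher on day 7 than on day 3 in 7 of the 10 genes, by limma with an interaction of treatment and day. The difference in log2 was 2.13 ± 0.33 for CHAC1, 1.82 ± 0.31 for DDIT3, 1.76 ± 0.19 for PHGDH, 1.68 ± 0.28 for ASNS, 1.48 ± 0.22 for TRIB3, 1.03 ± 0.30 for DDIT4 and 0.91 ± 0.20 for XBP1 (SE), with limma adjusted p from 0.0018 for PHGDH to 0.030 for DDIT4, and 28.5% of all genes tested passed. No condition had a replicate, and the error is the difference between the regimens. The fit was run on values with the trend on span, length and GC still in them. The rank correlation with span was positive on day 3 and negative on day 7 in both regimens. With the trend removed, DDIT4 had log2 ratios of 0.93 and 1.53 on day 3 and 1.37 and 1.52 on day 7 (CONV-TOPO and EE-TOPO). XBP1 had 0.0012 and -0.080 on day 3 and 0.19 and 0.37 on day 7. ASNS had -0.71 and -0.55 on day 3 and 0.91 and 1.33 on day 7.

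In PHGDH, ASNS, XBP1 and ATF4, both regimens lay below untreated spheroids on day 3 and above them on day 7, each by a counting interval that excluded 1. For ATF4 the difference of 0.35 did not pass (limma adjusted p = 0.23), and its day 7 direction turns in the deposited CPM. Untreated levels fell from day 3 to day 7 in these genes, from 59.5 to 23.5 scaled CPM for ASNS, from 85.6 to 53.7 for PHGDH, from 133 to 101 for XBP1 and from 233 to 220.0 for ATF4. In scaled CPM the treated levels of day 7 were above those of day 3 in both regimens. In deposited CPM, ATF4 in CONV-TOPO fell from 239 to 224, and ASNS in CONV-TOPO had 37.2 on day 3 and 37.5 on day 7. The remaining treated levels of these genes rose in deposited CPM too. By its definition the difference is the day 3 to day 7 change of the treated mean minus that of the untreated library. In log2 the untreated change was -1.30 for ASNS, -0.66 for PHGDH, -0.40 for XBP1 and -0.08 for ATF4. It was -1.34 for DDIT3, -0.99 for CHAC1, -0.84 for TRIB3 and -0.16 for DDIT4. Why the untreated levels fell was not tested.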

How the results depend on the processing

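The counts of members past 2-fold depended on the baseline, the threshold and gene structure. With untreated day 0 as the baseline they were 3 in CONV-TOPO and 3 in EE-TOPO of day 3, in place of 0 and 1. All were higher, as were 2.03% and 2.53% of all genes, with 0.503% and 1.27% of all genes lower. Removal of the trend of span, length and GC gave 1 and 3 members on day 7, in place of 5 and 6. At 1.5-fold the counts of members were 2 in CONV-TOPO of day 3, 5 in untreated day 3 against day 0, 1 in untreated day 7 against day 0 and 5 in untreated day 7 against day 3. The share of all genes past these bounds was not computed at 1.5-fold or with the trend removed. For untreated day 7 against day 0, library totals and the trend removal gave 1 each. A limma fit of only the 4 libraries of the 2 treatments compared called 17 of 14472 genes (0.117%) in CONV-TOPO. It called 32 of 14601 (0.219%) in EE-TOPO and 64 of 14547 (0.44%) between the regimens, where the 6-library fit called 0. In this smaller fit DDIT4 in EE-TOPO passed (log2 fold change 1.80, limma adjusted p = 0.0489). Fewer residual degrees of freedom were left than in the 6-library fit. Its error therefore rests largely on the spread pooled over all genes, and is not that of replicates. Over the alternatives run, limma log2 fold changes of members turned sign 28 times, moved without turning 22 times and stayed 299 times.

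With library totals in place of TMM, the limma values that turned were for ASNS -0.067, ATF4 -0.035, HSPA5 -0.0021 and PSAT1 -0.049 in CONV-TOPO, for HSPA5 0.0051 between regimens, and for ATF4 -0.033 and TRIB3 -0.039 in day 7 against day 3. All 7 libraries without a day term gave HSPA5 -0.033 in CONV-TOPO and -0.054 in EE-TOPO. Leaving out either day (values with no test) spread the CONV-TOPO effect from -0.76 to 0.83 for ASNS, -0.070 to 0.20 for ATF4, -0.0046 to 1.74 for CHAC1, -0.32 to 1.49 for PHGDH, -0.30 to 0.40 for PSAT1 and -0.14 to 0.61 for XBP1. The EE-TOPO effect spread from -0.56 to 1.20 for ASNS, -0.29 to 0.13 for ATF4, -0.32 to 2.21 for CHAC1, -0.44 to 1.71 for DDIT3, -0.16 to 0.32 for HSPA5, -0.21 to 1.497 for PHGDH, -0.27 to 1.39 for TRIB3 and -0.27 to 0.80 for XBP1. The difference between regimens spread from -0.31 to 0.47 for CHAC1, -0.53 to 0.12 for DDIT3, -0.31 to 0.26 for HSPA5, -0.33 to 0.023 for TRIB3 and -0.13 to 0.18 for XBP1. The DDIT4 effect turned under none of these alternatives in either regimen. No paired analysis was possible because the labels carry no replicate numbers to serve as a block. The day term already compares libraries of the same day, and without it limma called 0 genes in CONV-TOPO, EE-TOPO and between the regimens (141, 366 and 111 at an unadjusted p under 0.05). The interaction of treatment and day, added after seeing the data, called 4733 genes with library totals and 4270 with median-of-ratios size factors, and of the members' calls only that of DDIT4 was lost, with library totals (0.74, limma adjusted p = 0.093). Each of the 10 genes had at least 183 estimated reads in every library, and with no replicates the counting intervals leave out the variation between spheroids.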
